A study of Mus musculus with 16 samples.

Results

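Mss51 and 9 genes of myostatin and activin signalling were followed in cortical bone of 16 mice, and the transcript abundance of each was compared between hindlimb unloaded and control mice. The members were found by gene symbol, and 8 of the 10 were listed among the 36829 features of the libraries: Mss51, Gdf11, Inhba, Inhbb, Acvr2a, Acvr2b, Fst and Fstl3. Mstn, which encodes myostatin, and Acvr1b, which encodes a type I activin receptor, were not listed under these symbols and were not analysed here, and 3887 features carry the symbol Rnf135, so that the gene behind such a feature could not be told from its name. Of the 8 listed members, 7 had a mean of at least 0.5 RPKM (reads scaled to the length of the transcript and to the reads of the library) and were tested among 16973 features, and the eighth, Acvr2b, lay below that level.

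All mice were female C57Bl/6 mice of 11 weeks, and the labels name no altered allele and no drug in either group. The 8 mice of the hindlimb unloaded group (HLU) were held by the tail for 7 days so that the hind limbs did not touch the cage, and the 8 control mice bore weight normally; whether the controls wore a harness is not stated. The bone was femoral, its ends had been cut off and its marrow flushed out with saline, and the RNA of each mouse made its own library.

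Myostatin, GDF11 and the activins are secreted ligands of the TGF-beta superfamily. They bind the type II receptors ACVR2A and ACVR2B, which activate a type I receptor that phosphorylates SMAD2 and SMAD3, and follistatin and follistatin-like 3 bind the ligands and keep them from the receptors. Myostatin restrains muscle mass, activins and their antagonists act on bone formation and resorption, and Mss51, also known as Zmynd17, encodes a zinc finger protein found at mitochondria of skeletal muscle, whose transcript is known to fall in muscle when myostatin is blocked.

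The promoter of Mss51 is shown first because Mss51 was the member that differed most between the groups, and those of Acvr2a and Inhba as those of a receptor and a ligand of the pathway, with a positive and a negative r with Mss51 between mice, neither of which passed at the adjusted level. Each sequence is the 250 bases before the annotated start, read 5′ to 3′ on the strand of the gene from RefSeq on GRCm38.p6, which held such a window for 9 of the 10 members. Capitals mark the palindrome GTCTAGAC, to which Smad proteins bind, in Mss51 (chr14:20496902-20497151, minus strand), and the Smad-binding letters CAGAC, here read on the other strand as GTCTG, in Acvr2a (chr2:48813859-48814108, plus strand). Inhba (chr13:16011601-16011850, plus strand) is printed without capitals.
Mss51: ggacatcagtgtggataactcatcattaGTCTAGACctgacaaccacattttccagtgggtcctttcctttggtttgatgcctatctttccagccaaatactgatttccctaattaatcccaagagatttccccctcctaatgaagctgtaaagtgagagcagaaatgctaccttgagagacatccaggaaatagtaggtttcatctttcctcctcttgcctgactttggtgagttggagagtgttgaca
Acvr2a: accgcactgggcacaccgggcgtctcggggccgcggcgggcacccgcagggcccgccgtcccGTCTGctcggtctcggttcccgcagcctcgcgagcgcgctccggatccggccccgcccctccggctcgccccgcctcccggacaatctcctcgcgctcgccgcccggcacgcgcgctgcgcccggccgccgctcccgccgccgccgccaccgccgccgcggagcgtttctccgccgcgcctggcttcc
Inhba: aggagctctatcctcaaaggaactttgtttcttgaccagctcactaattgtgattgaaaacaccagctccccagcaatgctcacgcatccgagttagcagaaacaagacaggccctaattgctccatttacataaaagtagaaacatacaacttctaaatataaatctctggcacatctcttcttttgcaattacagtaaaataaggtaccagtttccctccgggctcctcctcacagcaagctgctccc

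GTCTAGAC occurred once in the Mss51 window, 214 bases from the start, in none of the other 8 windows, and in 55 of 32851 promoters of the same length (0.167%). CAGAC, searched on both strands, was held by 42.2% of those promoters. It occurred 2 times each in the windows of Mstn and Fstl3, once each in those of Acvr2a and Acvr2b, and not in those of Mss51, Inhba, Inhbb, Gdf11 and Acvr1b. The E-box CANNTG, the letters bound by myogenic factors, was held by 66.2% of promoters and was absent from the Mss51 window. These matches describe letters, and no binding was measured.

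Whole reads could be recovered from the RPKM values of all 16973 features tested. The reads by which a library had been divided numbered between 7067512 and 21363584, with the lowest of the HLU mice at 7838277. All 12 osteocyte and osteoblast markers looked for were listed, with a summed abundance of 991.5 to 2431 RPKM in control mice and 1298 to 3002 RPKM in HLU mice, and the difference in their score between groups did not pass the test (exact permutation p = 0.618). Granulocyte transcripts were more abundant, with the 7 listed of 10 markers summing to between 12350 and 44410 RPKM over the 16 mice.

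Mss51 (chr14:20482867-20496901, minus strand, GENCODE M21 on GRCm38, while the reads had been aligned to mm9) was the member with the largest difference. Mss51 ranged from 13.0 to 19.97 RPKM (median 14.97) in control mice, and from 15.6 to 54.6 RPKM (median 39.9) in HLU mice. The control mice lay close together, with a coefficient of variation of 15.4%, the HLU mice were spread more widely, at 34.5%, and the groups overlapped only through HLU mouse 2. Its abundance was 2.38-fold higher after HLU on the log2(RPKM + 0.1) scale (log2 fold change 1.25, SE 0.22, exact permutation p = 0.000622), from 168 to 2135 reads per mouse.

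By the unadjusted rule (p under 0.05 and at least 1.2-fold), Mss51 was the 1 member of the 7 tested that passed, beside 5.87% of all features, 1.11% in the higher direction. Its limma p of 2.25e-05 was the lowest of all 16973 features, but its Benjamini-Hochberg adjusted p was 0.256, and no feature passed at an adjusted p under 0.1 (0.0% called by limma, with 1049 features at an unadjusted p under 0.05, and 0 called by limma's voom on the recovered reads, with 1136 at an unadjusted p under 0.05). At least 7 of the 8 HLU mice lay above every control mouse for 6 features (0.0354%), Mss51 among them, a count chosen after its values had been seen. The adjusted call turned on HLU mouse 2, without which the log2 fold change was 1.43 and the limma adjusted p 0.00106. It also passed with Myh7 as a covariate (1.28, adjusted p = 0.0290) and with the 15 listed muscle genes as a covariate (1.198, adjusted p = 0.0104), and over all alternatives the adjusted p ranged from 0.00106 to 0.765.

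**Figure D1:**
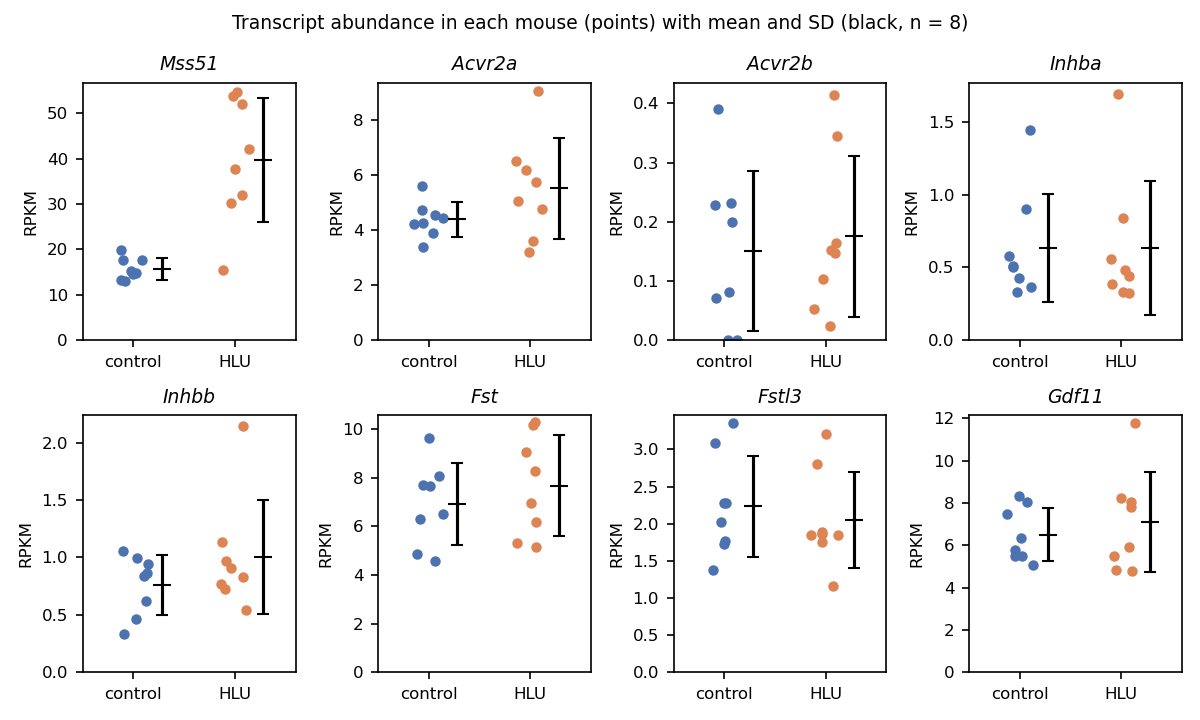
RPKM of the 8 listed members in each control (blue) and HLU (orange) mouse, with the mean and SD in black (n = 8 per group) and each vertical axis starting at 0. For Mss51, 7 of the 8 HLU mice stand above the highest control mouse at 19.97 RPKM, while the points of the other 7 genes overlap.

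Of the genes on either side of Mss51, Anxa7, which encodes a calcium-dependent membrane-binding protein, lies 2733 bases away in the annotation and had 41.4 ± 2.49 RPKM in control and 42.2 ± 2.01 RPKM in HLU mice (SD, n = 8 per group, exact permutation p = 0.474). Ppp3cb, the neighbour at the other side, was not listed under its symbol. No other annotated gene overlaps Mss51.

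Of the ligands, Gdf11, a close relative of myostatin, was the most abundant per kilobase. Gdf11 (chr10:128882295-128891718) ranged from 5.07 to 8.31 RPKM (median 6.07) in control mice, and from 4.79 to 11.8 RPKM (median 6.87) in HLU mice. The groups overlapped, with HLU mouse 1 alone above every control and 2 HLU mice below every control. Its log2 fold change was 0.09 (SE 0.18, limma adjusted p = 0.904, exact permutation p = 0.646), and without HLU mouse 1 it was -0.02.

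Inhba, which encodes the subunit of activin A, was low, at 7 to 85 reads per mouse. Inhba (chr13:16011851-16031621) ranged from 0.332 to 1.45 RPKM (median 0.505) in control mice, and from 0.326 to 1.69 RPKM (median 0.463) in HLU mice. A single mouse of each group stood above the rest, control mouse 1 at 1.45 RPKM and HLU mouse 2 at 1.69 RPKM, and the groups overlapped. The log2 fold change was -0.05 (SE 0.33, limma adjusted p = 0.974), and its sign turned with median-of-ratios scaling (0.0213) and without control mouse 1 (0.12).

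Inhbb, which encodes the subunit of activin B, was also low, at 10 to 178 reads per mouse. Inhbb (chr1:119415465-119422248) ranged from 0.333 to 1.05 RPKM (median 0.849) in control mice, and from 0.541 to 2.15 RPKM (median 0.868) in HLU mice. HLU mouse 1 was the highest by a wide gap, and it was also the highest for Gdf11. The log2 fold change was 0.33 (SE 0.27, limma adjusted p = 0.764, exact permutation p = 0.241).

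Of the receptors, Acvr2a was readily measured. Acvr2a (chr2:48814109-48903269) ranged from 3.37 to 5.61 RPKM (median 4.33) in control mice, and from 3.203 to 9.04 RPKM (median 5.39) in HLU mice. Among the HLU mice 4 lay above every control and 1 below every control, so that the HLU group was wider at both ends. The log2 fold change was 0.27 (SE 0.18, limma adjusted p = 0.750, exact permutation p = 0.160). Without HLU mouse 3, the lowest, it was 0.37 and passed the unadjusted rule (limma adjusted p = 0.543), and without HLU mouse 4, the highest, it was 0.16 (limma adjusted p = 0.855).

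Acvr2b was close to the limit of detection, at 0 to 22 reads per mouse. Acvr2b (chr9:119402118-119434995) ranged from 0 to 0.391 RPKM (median 0.141) in control mice, 2 of which had no read, and from 0.0244 to 0.414 RPKM (median 0.150) in HLU mice. The groups overlapped over nearly their whole range (exact permutation p = 0.622), and a difference was not detectable at this depth.

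Of the antagonists, Fst, which encodes follistatin, was the most abundant member after Mss51. Fst (chr13:114452290-114458951) ranged from 4.56 to 9.60 RPKM (median 7.08) in control mice, and from 5.15 to 10.3 RPKM (median 7.60) in HLU mice. The groups overlapped, with 2 HLU mice above every control. The log2 fold change was 0.14 (SE 0.18, limma adjusted p = 0.848, exact permutation p = 0.464).

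Fstl3, the other antagonist, was less abundant. Fstl3 (chr10:79777272-79782630) ranged from 1.37 to 3.35 RPKM (median 2.15) in control mice, and from 1.17 to 3.21 RPKM (median 1.86) in HLU mice. No HLU mouse lay above every control mouse, and 1 lay below. The log2 fold change was -0.12 (SE 0.21, limma adjusted p = 0.883, exact permutation p = 0.563).

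**Figure D2:**
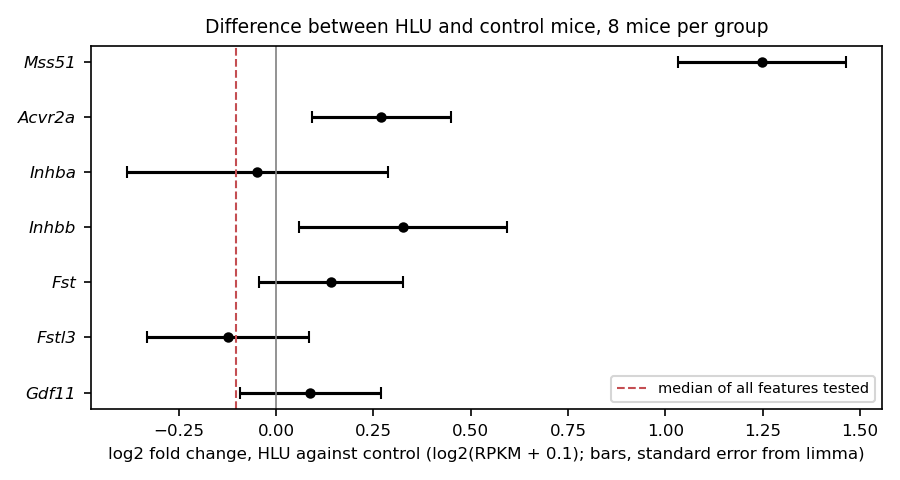
Log2 fold change of HLU against control on the log2(RPKM + 0.1) scale for the 7 members tested, with bars of 1 standard error from limma (8 mice per group). Mss51 stands at 1.25, the other 6 lie between -0.12 and 0.33, and the dashed line marks the median of all features tested at -0.10.

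The 6 members tested other than Mss51 had a median log2 fold change of 0.11, beside -0.10 over all 16973 features, and none passed the unadjusted rule. By level in RPKM, the order was Mss51, Fst, Gdf11, Acvr2a, Fstl3, Inhbb, Inhba and Acvr2b. Mss51 exceeded Fst in 16 of 16 mice and Acvr2a exceeded Fstl3 in 16 of 16. The order was less firm between Fst and Gdf11 (11 of 16 mice), Gdf11 and Acvr2a (13 of 16) and Inhbb and Inhba (13 of 16). Libraries were of a kit that does not mark strand, so reads of genes annotated on the opposite strand could not be told apart from those of Acvr2a (Orc4), Acvr2b (Gm47320), Inhba (B230303A05Rik and Gm48444), Fst (Gm47040) and Fstl3 (Prss57).

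Whether Mss51 followed these genes from mouse to mouse was examined on log2(RPKM + 0.1) values centred within each group, so that the difference between groups did not enter. This gave 7 relations over 16 mice, tested by permutation within groups. In a bulk sample, fewer cells of a type and less RNA per cell cannot be told apart. Relations with Mss51 were many in the comparison without covariates: 3130 of 16972 features (18.4%) had a slope on Mss51 at a limma adjusted p under 0.1, 8.47% positive and 9.98% negative. The count was 1046 without HLU mouse 7, and it was 0 or 1 with Myh7, the muscle genes, the erythroid and granulocyte scores, the unlisted share of reads or a replicate block in the fit. The members stood amid them, with 1 of the 6 members tested called, and with a median size of r of 0.541 over the 7 members beside 0.358 over all features.

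Fst had the strongest relation. Mice with more Mss51 had more Fst (Pearson's r 0.639, permutation p = 0.0059; Spearman's rho 0.644, permutation p = 0.0120), and 13.3% of all features had an r of larger size. HLU mice 5 and 6 were the highest in both genes among HLU mice, at 53.9 and 54.6 RPKM of Mss51 and 10.1 and 10.3 RPKM of Fst. Within HLU mice r was 0.816 (exact permutation p = 0.00667) and within control mice 0.315 (exact permutation p = 0.439), but the 2 slopes were not shown to differ (limma p = 0.990). The test for a difference of slopes, here and for Acvr2a below, was added after the values had been seen. The limma adjusted p of the slope was 0.0674, and without HLU mice 2 and 6, the 2 mice farthest from the median of Mss51, r was 0.566. The call was lost without HLU mouse 2 (adjusted p = 0.119), 3 (0.107), 6 (0.138) or 7 (0.122), with r of 0.588 or above in each case.

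The receptors leaned the same way as Fst. For Acvr2a r was 0.541 (permutation p = 0.1005), rho was 0.579 (permutation p = 0.0382), and r was 0.395 without HLU mice 2 and 6. Its r was 0.627 in HLU mice (exact permutation p = 0.0967) and 0.00978 in control mice (exact permutation p = 0.982), and the difference of slopes was not called (limma p = 0.430). For Acvr2b r was 0.560 (permutation p = 0.0119), rho was 0.495 (permutation p = 0.0470), and r was 0.386 without these mice. Acvr2b gave 0.649 in control and 0.654 in HLU mice, on few reads. The slope of Acvr2a did not pass at the adjusted level (limma adjusted p = 0.135), except without HLU mouse 4 (0.0703) and with median-of-ratios scaling (0.0875).

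Inhba and Fstl3 leaned the other way. For Inhba r was -0.573 (permutation p = 0.0377), but rho was -0.25 (permutation p = 0.365), and r was -0.150 without HLU mice 2 and 6. HLU mouse 2 had the lowest Mss51 and the highest Inhba of its group, and without it alone r was -0.151. The slope of Inhba (limma adjusted p = 0.125) passed the threshold without control mouse 2 (0.0966), without HLU mouse 5 (0.0935), without both of these smallest libraries (0.0648), with a pseudocount of 1 (0.0846) and with voom (0.0776). For Fstl3 r was -0.505 (permutation p = 0.0578), rho was -0.479 (permutation p = 0.0632), and r was -0.260 without HLU mice 2 and 6 and -0.257 without HLU mouse 2. HLU mouse 2 was also the highest HLU mouse for Fstl3, at 3.21 RPKM.

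Gdf11 and Inhbb gave the weakest relations. For Gdf11 r was 0.310 (permutation p = 0.365), rho was 0.253 (permutation p = 0.384), and r was 0.152 without HLU mice 2 and 6 and 0.0108 without HLU mouse 2. For Inhbb r was 0.102 (permutation p = 0.709), rho was 0.177 (permutation p = 0.512), and r was 0.148 without HLU mice 2 and 6. A larger size of r was found in 56.6% of features for Gdf11 and in 85.9% for Inhbb.

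**Figure D3:**
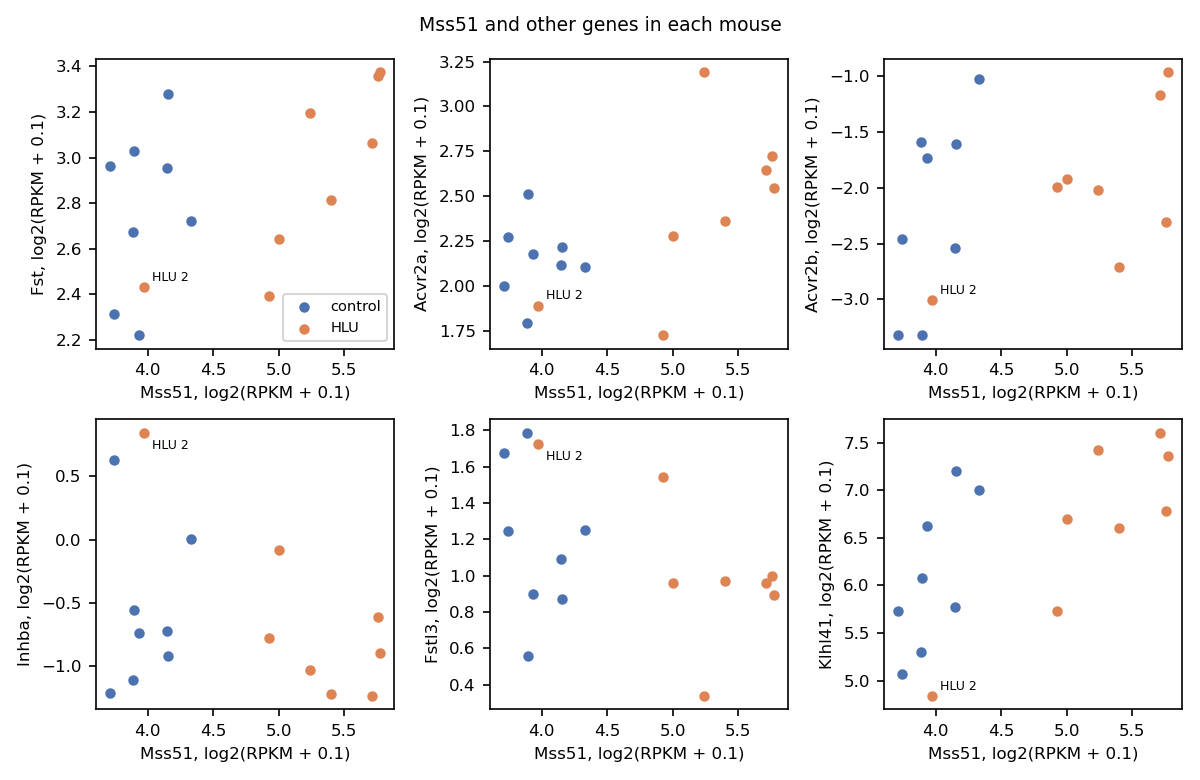
Mss51 against Fst, Acvr2a, Acvr2b, Inhba, Fstl3 and the muscle gene Klhl41 in each of 16 mice, both axes in log2(RPKM + 0.1), with control mice in blue and HLU mice in orange. HLU 2, labelled in each panel, has the lowest Mss51 of the HLU mice, and has the highest Inhba (1.69 RPKM) and Fstl3 (3.21 RPKM) of that group.

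Muscle transcripts moved with Mss51 between mice. Of 22 skeletal muscle markers only Myh7, a slow myosin heavy chain, was listed, and the defining markers Acta1, Ckm and Myh4 were not. Myh7 and 14 further muscle genes that the files do list, 15 in all and chosen after the data had been seen (among them Klhl41, Csrp3, Casq2, Myod1, Myog and Dmd), summed to 57.8 to 512 RPKM (median 202) in control mice and to 54.1 to 635 RPKM (median 252) in HLU mice. The difference in their score between groups was 0.16 on the log2 scale (exact permutation p = 0.774). It followed Mss51 within groups (r 0.757, permutation p = 0.00031; rho 0.709, permutation p = 0.00307; r 0.630 without HLU mice 2 and 6), in control mice (0.745) and in HLU mice (0.850).

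All 15 muscle genes had a positive r with Mss51, between 0.448 and 0.787, with Klhl41, which encodes a sarcomere-associated protein, the highest. Klhl41 ranged from 33.5 to 147 RPKM in control and from 28.5 to 194 RPKM in HLU mice, with HLU mouse 2 the lowest. Of the 14 muscle genes tested for a difference between groups, 1 passed the unadjusted rule, Fgf6, a growth factor of muscle (log2 fold change 1.39, SE 0.49, limma adjusted p = 0.744), beside 5.87% of all features. Fgf6 was low, from 0 to 1.27 RPKM (median 0.363) in control and from 0.296 to 1.94 RPKM (median 0.934) in HLU mice. With the muscle score as a covariate the log2 fold change of Mss51 was 1.198, beside 1.25 without it. The relation of Mss51 with Fst had an r of 0.409 with this covariate and was no longer called (limma adjusted p = 0.990). With it r was 0.0437 for Acvr2b, beside 0.560 without it, 0.409 for Acvr2a, -0.356 for Inhba and -0.289 for Fstl3.

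Granulocyte transcripts moved the other way. The granulocyte score had an r of -0.706 with Mss51 (permutation p = 0.0111; rho -0.632, permutation p = 0.0246; r -0.553 without HLU mice 2 and 6), and HLU mouse 2 had the highest granulocyte sum of all mice. The erythroid score, from 8 of 9 markers, had an r of -0.534 (permutation p = 0.0814; rho -0.453, permutation p = 0.134; r -0.388 without HLU mice 2 and 6), and its sum was 1150 to 2416 RPKM in control and 602 to 2102 RPKM in HLU mice (exact permutation p of the score = 0.0800). With both scores as covariates r was 0.475 for Fst, 0.141 for Acvr2a, 0.132 for Acvr2b, -0.419 for Inhba and -0.0797 for Fstl3. The share of a library's reads outside the listed features had an r of 0.670 with Mss51 (permutation p = 0.00608; rho 0.671, permutation p = 0.0098; r 0.544 without HLU mice 2 and 6), and with it as a covariate r was 0.517 for Fst, 0.503 for Acvr2a, 0.0518 for Acvr2b, -0.508 for Inhba and -0.42 for Fstl3, and the log2 fold change of Mss51 was 1.005. The adipocyte score, from 4 markers, also followed Mss51 (r 0.527, permutation p = 0.0373, and rho 0.647, permutation p = 0.00732). Its r was 0.755 without HLU mice 2 and 6, 0.863 in control mice and 0.485 in HLU mice. A positive relation with Mss51 was thus not particular to muscle genes. The part of these tissues in the relations was not tested beyond these values.

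The ligands Gdf11 and Inhbb, which had the weakest relations with Mss51, varied with the osteocyte and osteoblast markers. Over 8 relations with the bone marker score within groups, that of Gdf11 had an r of 0.780 (permutation p = 0.00017; rho 0.735, permutation p = 0.00146), with 0.898 in control and 0.801 in HLU mice. That of Inhbb had an r of 0.735 (permutation p = 0.00169; rho 0.65, permutation p = 0.0109), with 0.637 in control and 0.892 in HLU mice. Without control mouse 8 and HLU mouse 1, the 2 mice farthest from the median of the score, r was 0.685 for Gdf11 and 0.639 for Inhbb. The other 6 members had an r between -0.304 (Fstl3) and 0.388 (Fst), and none of these had a permutation p under 0.05. Among them, Mss51 had an r of 0.340 (permutation p = 0.1504), with 0.784 in control and 0.228 in HLU mice. Fst had 0.633 in control and 0.0978 in HLU mice. Whether these relations differed between the groups was not tested. These p-values were not adjusted. An r of larger size with the bone score was found in 1.59% of all features for Gdf11 and in 2.60% for Inhbb. The relations were not particular to bone markers, as the r of Gdf11 was -0.728 with the erythroid, -0.664 with the granulocyte and 0.598 with the endothelial score, and that of Inhbb was 0.529 with the osteoclast score.

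**Figure D4:**
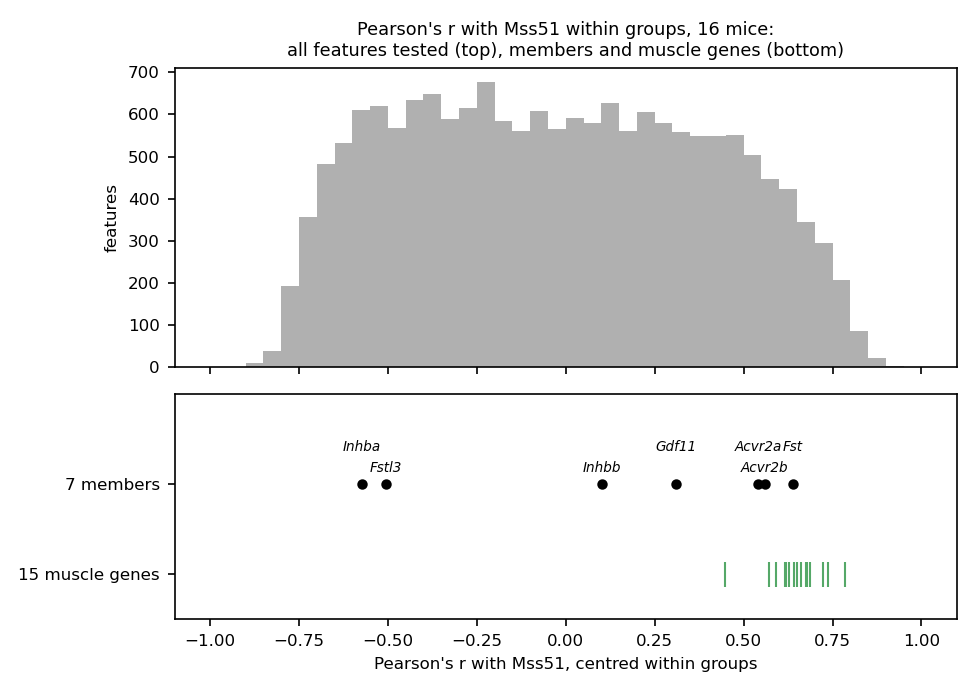
Pearson's r with Mss51 within groups over 16 mice, as a histogram of all features tested (top) and as points for 7 members and bars for 15 muscle genes (bottom). The members are spread from -0.573 (Inhba) to 0.639 (Fst), inside the spread of all features, while the 15 muscle genes all lie between 0.448 and 0.787.

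Of 30 other genes of the pathway, all were listed, 23 were tested, 1 was higher after HLU by the unadjusted rule and 0 were lower, beside 1.11% and 4.76% of all features, and none passed at the adjusted level. The gene was Zfyve9, which encodes SARA, an anchor that brings SMAD2 and SMAD3 to the receptor. Zfyve9 was 5.55 ± 1.55 RPKM in control and 8.56 ± 2.94 RPKM in HLU mice (SD, n = 8 per group, exact permutation p = 0.0368). Its log2 fold change was 0.58 (SE 0.23, limma adjusted p = 0.744), and the unadjusted call was lost without control mouse 7 (0.47), HLU mouse 4 (0.50), HLU mouse 7 (0.50) or the 2 smallest libraries (0.52), and with the erythroid and granulocyte scores (0.27) or the unlisted share of reads (0.28) as covariates.

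The next lowest p-values belonged to Gdf3, a ligand of the same superfamily, with a log2 fold change of -0.53 (limma adjusted p = 0.744), and to Dcn, which encodes the matrix proteoglycan decorin, with 0.52 (limma adjusted p = 0.744). The slope on Mss51 was positive in 7 of the 23 genes and negative in 0, beside 8.47% and 9.98% of all features. The 7 were the receptor Acvr1 (r 0.710), the ligand antagonist Wfikkn2 (0.699), the latency protein Ltbp3 (0.605), the signal carriers Smad3 (0.679) and Smad4 (0.623), the inhibitory Smad7 (0.733) and Zfyve9 (0.689). Smad2 had an r of -0.493 and was not called. The 7 slopes were all lost with the muscle genes, with Myh7, with the erythroid and granulocyte scores or with the unlisted share of reads as a covariate, and without HLU mouse 2 those of Acvr1, Ltbp3, Smad4 and Zfyve9 were lost. Without HLU mouse 7 all but that of Smad7 were lost, and those of Ltbp3 and Smad4 also without, among others, control mouse 2 or 5 or HLU mouse 3.

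Of 5 genes of muscle wasting that the pathway is known to act on, Fbxo32 and Trim63, which encode muscle ubiquitin ligases, were not listed. Foxo3, which encodes a transcription factor that drives them, was lower after HLU, at 19.9 ± 3.14 RPKM in control and 15.3 ± 3.61 RPKM in HLU mice (SD, n = 8 per group, exact permutation p = 0.0182). Its log2 fold change was -0.40 (SE 0.15, limma adjusted p = 0.744), beside a median of -0.10 over all features. It was the 1 of the 3 tested that passed the unadjusted rule, beside 4.76% of all features in the lower direction. The unadjusted call was lost with the erythroid and granulocyte scores (-0.07) or the unlisted share of reads (-0.23) as covariates. Foxo1 did not pass (-0.05), nor did Cdkn1a, an inhibitor of the cell cycle (0.11), which had a positive slope on Mss51 (r 0.614, limma adjusted p = 0.0723) that was lost without HLU mouse 2, 3, 6 or 7.

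Among 11396 features with a unique symbol and a mean of at least 2 RPKM, the 5 with the highest r with Mss51 within groups over 16 mice were Zfp3 (0.921), Oaz2 (0.903), Rab11fip5 (0.898), Gm12097 (0.895) and Rab40b (0.891). The 3 with the lowest were Dhrs9 (-0.918), Ints4 (-0.874) and Prelid2 (-0.873). These r values were picked as the extremes of all these features in the same mice, and so overstate the relations. Without HLU mice 2 and 6, r lay between 0.785 (Zfp3) and 0.893 (Oaz2) for the 5. For the 3 it lay between -0.884 (Dhrs9) and -0.744 (Ints4). Oaz2, which encodes an inhibitor of polyamine synthesis, ranged from 6.97 to 11.8 RPKM in control and from 7.24 to 15.9 RPKM in HLU mice, with a log2 fold change of 0.35 (SE 0.16, limma adjusted p = 0.744). Zfp3 had a log2 fold change of 0.34 (SE 0.25) and Prelid2 of -0.50 (SE 0.23), and none of these 8 features passed at the adjusted level.

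**Figure D5:**
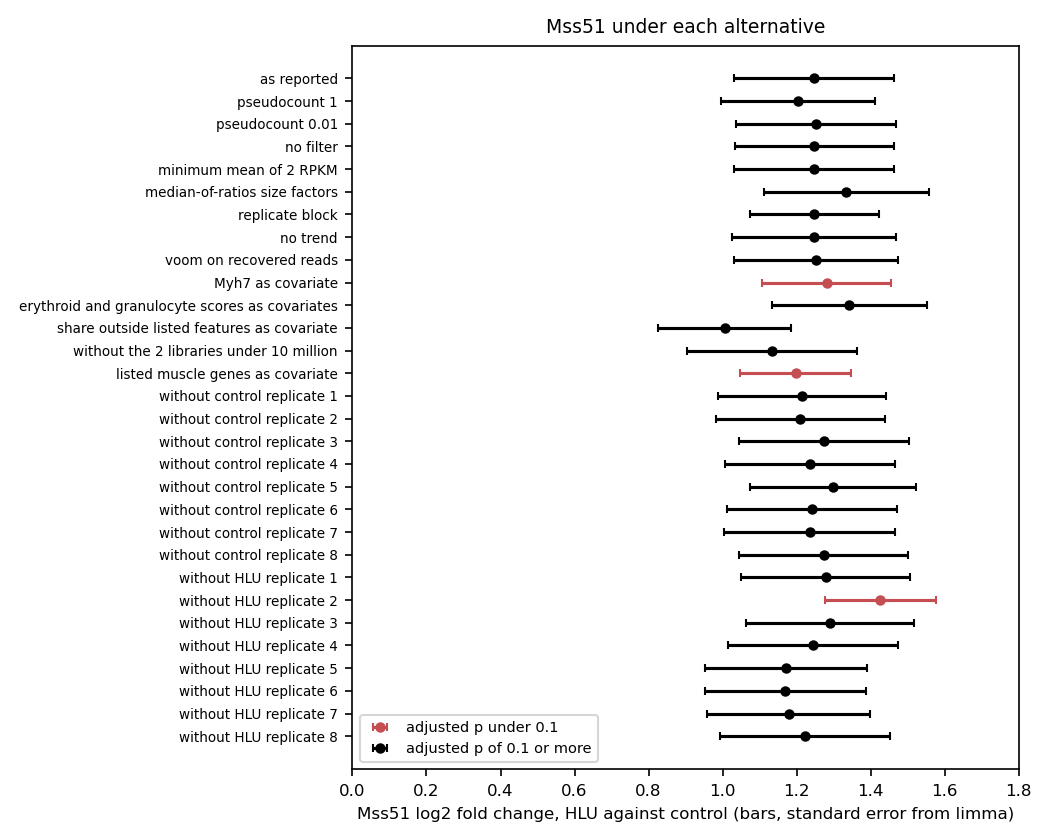
Log2 fold change of Mss51, HLU against control, as reported and under each alternative, with bars of 1 standard error from limma. All values lie between 1.005 and 1.43, and the 3 in red, with Myh7 or the listed muscle genes as a covariate and without HLU replicate 2, have an adjusted p under 0.1.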

How the data were processed

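Femoral cortical bone of 8 control and 8 HLU mice was examined, with the group and number of each mouse taken from its title. Libraries were made by the authors with the TruSeq v2 kit, run with 8 in a lane, and aligned with TopHat2 (mm9, per the submitters' processing notes, which also name DESeq2). The deposited values are RPKM, made by the authors for each mouse. The counting tool and annotation are not given in the sources used here. Which libraries shared a lane is not stated either, so an effect of lane could not be told apart from a difference between groups.

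Whole reads were recovered as the values that make a feature's 16 RPKM values whole to within 0.002 reads (100.0% of the features tested). Features that reached 0.5 RPKM on average entered a limma fit (version 3.58.1, R 4.3.3) of log2(RPKM + 0.1), with a variance trend and Benjamini-Hochberg adjustment over 16973 features, and a fold change on this scale understates the change of low genes. For single genes all 12870 splits of the mice were enumerated in an exact permutation test (two-sided, smallest p 0.000155), and relations by 100000 permutations within groups or all 40320 pairings within a group of 8, two-sided, with Python 3.11.15, numpy 2.4.6, scipy 1.17.1 and pandas 2.3.3. Plots were drawn with matplotlib 3.10.9. The limma fits were tested on simulated data. There, 124 of 200 features changed 2-fold were recovered, with 10 false calls. For a slope of 1 on a covariate, 75 of 200 were recovered, with 15 false calls, so real differences and slopes can be missed. No relation could be computed for Mstn and Acvr1b, so that 7 of 9 planned relations remained. Scores are means over a list of centred log2 values. Marker lists for B lymphocytes, adipocytes, endothelial cells and osteoclasts gave an r with Mss51 of -0.472, 0.527, 0.552 and 0.324. Promoters came from RefSeq and positions from GENCODE M21, both on GRCm38, which is not the build of the alignment.

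The genes named are the members, the other pathway genes past the unadjusted rule or among the 3 of lowest p, 5 genes of muscle wasting, the neighbours of Mss51, and the features most like it. The members and lists were chosen with earlier results of these data known. Alternatives covered the pseudocount, the filter, scaling, covariates, voom and each mouse left out. Reads are not independent molecules, so read numbers cover counting error only.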

Additional observations from a re-analysis of the deposited data

Results flagged for a closer look

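Mss51 in HLU mouse 2, at 15.6 RPKM, was far below the other HLU mice, the nearest of which was at 30.2 RPKM. On the log2 scale used for the fits, the gap was 0.528 of the range of the group, just above Dixon's limit for 8 samples. Of the 16 groups examined on this log2 scale (8 genes in 2 groups), this was the 1 that passed, and chance flags about 1 in 20. Outliers on the RPKM scale itself were not examined, and the groups flagged there could differ. The same library had the highest granulocyte sum of all mice and low muscle transcripts.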

How the results depend on the processing

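Of 42 results recomputed under 29 settings, 28 of them planned, 1014 values were classed as the same. A further 131 lost and 10 gained significance, 40 moved and 17 changed sign. A tested value was the same if it kept its direction and its adjusted call. A count was the same if it stayed close to the main count, and otherwise it moved. Values of Acvr2b, which had no model test, were judged by the size of their change alone, and 1 of them changed direction. In the 13 settings other than leaving out single mice, the log2 fold change of Mss51 lay between 1.005 and 1.34 (limma adjusted p 0.0104 to 0.765). Without HLU mouse 2 it was 1.43 (limma adjusted p = 0.00106). Mss51 passed the unadjusted rule in every setting. It also gained an adjusted call with Myh7 (1.28) and with the listed muscle genes (1.198), which include Myh7, a covariate chosen after seeing the data. Features called unadjusted were 570 with the erythroid and granulocyte scores. An adjusted call was made for 1 feature with no filter (Siah3), no trend (a feature named Rnf135) or the share outside listed features (Stfa2l1). It was made for Mss51 alone with Myh7, with the muscle genes and without HLU mouse 2. These single features were named after their values were seen. Median-of-ratios scaling moved the calls from 188 higher and 808 lower to 376 and 401, with the median of all features moving from -0.10 to -0.02. Features with a slope on Mss51 were 0 with the replicate block, the share outside listed features or the muscle genes, and 1 with Myh7 (Gm6419) or with the erythroid and granulocyte scores (Gm12396). Members with such a slope were 2 with pseudocount 1, voom or without the 2 smallest libraries (Fst and Inhba) and with median-of-ratios scaling (Fst and Acvr2a), and 0 with no filter, the replicate block, Myh7, the erythroid and granulocyte scores, the share outside listed features or the muscle genes.

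Differences that changed sign, none of them called, were those of Acvr2b (-0.30 with the share outside listed features, beside 0.19, a move smaller than the spread between mice), Inhba (0.0213 with median-of-ratios scaling, 0.12 with the share outside listed features), Gdf11 (-0.16 with the erythroid and granulocyte scores, -0.0321 with the share outside) and Gdf3 (0.0268 with these scores). The r with Mss51 changed sign for Gdf11 (-0.197 with the scores) and Inhbb (-0.227 with the replicate block, -0.302 with the scores, -0.0870 with the share outside, -0.0393 without the 2 smallest libraries, -0.155 with the muscle genes). Leaving out each mouse gave 588 to 1748 features called unadjusted (1748 without HLU mouse 2), 0 to 1 adjusted, 1046 (without HLU mouse 7) to 4049 (without HLU mouse 5) with a slope, 1 to 2 members called and 0 to 2 with a slope, and log2 fold changes of 1.17 to 1.43 for Mss51, -0.26 to 0.12 for Inhba and -0.0234 to 0.16 for Gdf11. The cause was not tested.

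The replicate numbers did not pair the mice: correlations of same-numbered deviations ran from -0.166 to 0.51, and 1 control and 2 HLU mice correlated best with their own number. With the replicate block 1039 features passed the unadjusted rule and Mss51 had a limma adjusted p of 0.5002. Inhba, Inhbb and Acvr2b rest on few reads, and for them small differences were not detectable at this depth.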
